A study of Mus musculus with 6 samples.

Results

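The Reelin pathway was followed through 7 genes in cultured mouse GABAergic interneurons, the neurons that release the inhibitory transmitter GABA. The members were the rows of the deposited expression table whose symbol is Reln (the ligand), Vldlr or Lrp8 (its receptors), Dab1 (the adaptor inside the cell), Fyn (a kinase of Dab1), or Crk or Crkl (adaptors that bind phosphorylated Dab1). All 7 were found, each in a single row, among 55335 genes. They were chosen by name and not by their values. All 7 also passed the filter on low values that left 12792 genes for testing.

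The RNA came from 6 samples. In 3 of them the cells were infected with AAV-shbrpf1, an adeno-associated virus that carries a short hairpin against Brpf1, and in the other 3 with AAV-scramble, which carries a scrambled hairpin. All 6 were primary cultures from wild-type C57BL/6 embryonic brain at embryonic day 14.5, grown in neurobasal medium with B27, and all were infected for 12 hours, so every library carries virus and there is no uninfected group. The study asks what Brpf1, a scaffold of histone acetyltransferase complexes, does in interneurons born in the medial ganglionic eminence (MGE). The source label calls the cells neural progenitors, whereas the titles call them GABAergic interneurons. Whether the samples of a group were separate cultures or animals is not stated, so that p-values measure the spread between these samples only, which may be technical.

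Reelin is a large glycoprotein that cells secrete into the matrix around them. It binds the lipoprotein receptors Vldlr and Lrp8, whose tails hold the adaptor Dab1, and the clustered receptors bring Dab1 to Src family kinases, above all Fyn. Phosphorylated Dab1 then recruits Crk and Crkl, which pass the signal to the exchange factor Rapgef1 and the small GTPase Rap1, and it also engages phosphatidylinositol 3-kinase and Akt. In the embryonic cortex the ligand comes mainly from Cajal-Retzius cells and guides the layering of excitatory neurons. Later, GABAergic interneurons of several classes make it.

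Values are FPKM, fragments counted relative to transcript length and to the size of the library, so that levels can be set beside each other between genes. Depth, estimated from the steps between low values, was 13.1 to 21.1 M fragments per library. The targeted gene Brpf1 had 3.13, 4.58 and 3.78 FPKM in AAV-shbrpf1 libraries 1, 2 and 3, against 3.29, 5.45 and 4.84 FPKM in AAV-scramble libraries 1, 2 and 3. It was lower with AAV-shbrpf1 in 3 of 3 replicate numbers, at ratios of 0.951, 0.84 and 0.782, but the groups overlapped and it was not called: the log2 difference was -0.18, with a 95% interval of -0.79 to 0.42, or -0.44 to 0.07 with the replicate number as a block (limma adjusted p = 1.00 in both fits, unadjusted p = 0.127 with the block). Every comparison of the viruses below therefore goes by the labels, with a targeted transcript that was not called lower. Libraries that share a replicate number resembled each other. Across the genes tested, differences between numbers made up 86.9% of the sum of squares (log2 scale), those between viruses 3.62% and the rest 9.5%. The numbers take 2 degrees of freedom, more than the viruses, so these shares are not on an equal footing. Of the interneuron markers, Gad1 and Gad2, which make GABA, and the MGE factor Lhx6 were present in each library at 27.96 FPKM or more. The library with the fewest detected genes was AAV-shbrpf1 library 2, with 18780 genes above 0 against 22621 to 26132 in the other 5.

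The promoters of 4 members are shown because their levels differed between the replicate numbers in opposite directions: Reln was highest in number 2, where Dab1, Vldlr and Crk were lowest. They were picked after their values were seen, and Lrp8 and Crkl, also lowest in number 2, are not shown. Each window runs from 250 bases before to 50 after a transcription start (RefSeq, GRCm38.p6), 5′ to 3′ on the gene's strand, and capitals mark GGGCGG on either strand, the core of the GC box that Sp1 family factors bind.
Reln chr5:22344656-22344955 (-): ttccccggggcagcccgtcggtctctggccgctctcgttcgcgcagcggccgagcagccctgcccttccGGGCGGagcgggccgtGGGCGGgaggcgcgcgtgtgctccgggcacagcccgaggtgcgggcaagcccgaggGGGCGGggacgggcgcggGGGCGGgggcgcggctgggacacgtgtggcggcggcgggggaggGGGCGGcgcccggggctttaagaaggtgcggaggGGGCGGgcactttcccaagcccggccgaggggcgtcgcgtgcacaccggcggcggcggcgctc
Dab1 chr4:104367288-104367587 (+): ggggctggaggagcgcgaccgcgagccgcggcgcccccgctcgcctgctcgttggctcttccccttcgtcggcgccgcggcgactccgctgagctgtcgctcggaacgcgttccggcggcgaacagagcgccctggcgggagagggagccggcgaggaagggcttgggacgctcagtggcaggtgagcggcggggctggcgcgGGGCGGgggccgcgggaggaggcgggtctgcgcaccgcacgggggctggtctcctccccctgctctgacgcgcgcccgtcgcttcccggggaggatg
Vldlr chr19:27216770-27217069 (+): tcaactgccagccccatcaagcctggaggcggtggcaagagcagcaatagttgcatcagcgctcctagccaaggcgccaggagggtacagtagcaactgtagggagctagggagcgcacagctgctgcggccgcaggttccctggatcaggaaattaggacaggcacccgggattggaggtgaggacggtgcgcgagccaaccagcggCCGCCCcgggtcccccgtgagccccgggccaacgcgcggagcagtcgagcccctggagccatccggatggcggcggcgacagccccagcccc
Crk chr11:75679009-75679308 (+): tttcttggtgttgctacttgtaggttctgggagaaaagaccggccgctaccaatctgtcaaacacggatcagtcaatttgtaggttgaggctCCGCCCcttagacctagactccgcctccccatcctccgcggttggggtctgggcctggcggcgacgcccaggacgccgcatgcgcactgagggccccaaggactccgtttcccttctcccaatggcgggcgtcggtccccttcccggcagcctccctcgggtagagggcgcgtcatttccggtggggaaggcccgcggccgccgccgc
The Reln window held 6 copies of the GC box and 47 CpG dinucleotides, against 1 copy in each of the other 3 windows and 46, 23 and 27 CpG in those of Dab1, Vldlr and Crk. Of all 32851 promoter windows of this length, 35.7% held the GC box, and the median window had 7 CpG. Dab1 and Vldlr each have another annotated start, upstream of the one shown, whose windows held 0 copies and 12 and 8 CpG. All 4 windows thus held more CpG than the median, and that of Reln the most GC boxes. The Reln window was the richest of the 4 in G and C, at 80.7%, against 77.3%, 68.0% and 65.0% for Dab1, Vldlr and Crk. How many copies such a composition alone would give was not computed. The windows of Lrp8 and Crkl held 0 copies, and that of Fyn held 1 copy. Such a match describes the letters only and says nothing of whether a factor binds. Whether GC boxes bear on the levels was not tested.

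Reln, the ligand, was the most abundant member in each of the 6 libraries. It had 74.5, 101 and 78.8 FPKM in AAV-shbrpf1 libraries 1, 2 and 3, against 66.2, 110 and 67.7 FPKM in AAV-scramble libraries 1, 2 and 3. The libraries numbered 2 were the highest of each group, the groups overlapped, and Reln stood above 96.0% to 97.8% of the tested genes of each library. The means were 84.8 ± 14.4 FPKM with AAV-shbrpf1 and 81.3 ± 24.9 FPKM with AAV-scramble (SD, n = 3 each). Reln (ENSMUSG00000042453) is a gene of 65 exons in its longest coding transcript of 11699 nt and lies on chromosome 5 from 21884454 to 22344702 on the minus strand (GRCm38). The only gene that overlaps its exons, Gm10475 on the other strand, never exceeded 0.191 FPKM, so that few reads of Reln could be its own if strand was not used.

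Which cells made this Reln was not measured, since these are bulk samples, where fewer cells of a type and less RNA per cell cannot be told apart. The factors that define Cajal-Retzius cells were near 0. Of 8 markers listed for these cells, Trp73, Lhx1, Lhx5, Ebf3, Nhlh2 and Barhl2 did not exceed 0.173 FPKM in any library. The remaining markers were Calb2 (calretinin), at 2.17 to 8.51 FPKM, and Ndnf, a secreted neuronal factor, at 0.935 to 4.72 FPKM, which interneurons also express. The summed level of the 8 was 3.9 to 8.71 FPKM with AAV-shbrpf1 and 5.49 to 10.1 FPKM with AAV-scramble. Nearly all of it was Calb2 and Ndnf. All 12 MGE interneuron markers were measured, and they summed to 677, 825 and 862 FPKM with AAV-shbrpf1 and to 651, 961 and 1094 FPKM with AAV-scramble in libraries 1, 2 and 3. Among them Sst (somatostatin), whose class of interneurons is known to contain Reln, had 232, 423 and 394 FPKM with AAV-shbrpf1 and 178, 468 and 564 FPKM with AAV-scramble. The list held no common course. Sst and Npy (neuropeptide Y) were lowest in library 1 of each group, whereas Gad1, Gad2 and Erbb4, a neuregulin receptor, were highest there. Without Sst and Npy, left out after their values were seen, the other 10 summed to 397, 226 and 343 FPKM in AAV-shbrpf1 libraries 1, 2 and 3, against 433, 277 and 338 FPKM in AAV-scramble libraries 1, 2 and 3, so that number 1 was then the highest. Of 7 markers of Reln interneurons from outside the MGE, 4 were measured, led by Id2 at 14.0 to 35.6 FPKM. The others measured were Prox1 at 0.731 to 6.26 FPKM, Htr3a at 0.765 to 4.55 FPKM and Nr2f2 at 0.68 to 3.16 FPKM. Below the filter, Lamp5, a marker of neurogliaform cells, was at 0.569 to 1.10 FPKM. Sp8 was at 0.152 to 0.415 FPKM and Vip at or below 0.194 FPKM. None of the 6 glutamatergic markers reached 0.666 FPKM except Slc17a6, which had that value in AAV-scramble library 1. Progenitor and glia markers were also abundant, the 12 listed summing to 514 to 1099 FPKM per library. Marker levels therefore do not tell which cells made Reln.

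**Figure D1:**
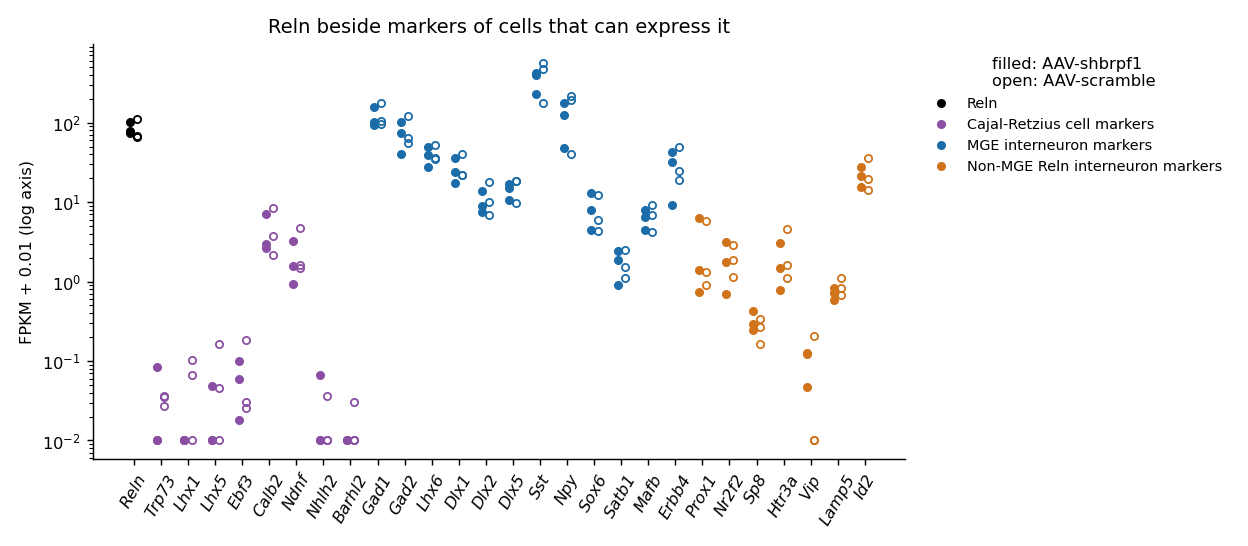
Level of Reln and of 3 marker lists in FPKM on a log axis, with 0.01 added so that values of 0 can be drawn. Each point is a library, filled for AAV-shbrpf1 and open for AAV-scramble. Reln lies at 66.2 to 110 FPKM, within the range of the MGE interneuron markers, while 6 of 8 Cajal-Retzius markers stay at or below 0.173 FPKM. Progenitor and glia markers are not drawn, though some reach such levels (Olig1, 58.9 to 179 FPKM).

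Both receptor genes were expressed at lower levels, and they were the lowest of the members in each library. Vldlr, the very low density lipoprotein receptor, had 14.6, 4.62 and 10.1 FPKM in AAV-shbrpf1 libraries 1, 2 and 3, against 17.3, 6.56 and 7.9 FPKM in AAV-scramble libraries 1, 2 and 3. It was highest in the libraries numbered 1 and lowest in those numbered 2, in each group. Its means of 9.77 ± 4.98 FPKM with AAV-shbrpf1 and 10.6 ± 5.84 FPKM with AAV-scramble (SD, n = 3 each) differed by less than either SD. Vldlr (ENSMUSG00000024924) is on the plus strand of chromosome 19, from 27216484 to 27254231.

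Lrp8, the apolipoprotein E receptor 2, had 8.13, 2.1 and 10.9 FPKM in AAV-shbrpf1 libraries 1, 2 and 3, against 8.4, 4.67 and 8.64 FPKM in AAV-scramble libraries 1, 2 and 3. Library 2 was the low one in each group, and lower still with AAV-shbrpf1. There the ratio of AAV-shbrpf1 to AAV-scramble was 0.451, with a 95% counting interval of 0.382 to 0.531, the ratio farthest from 1 among all members and numbers. Among the 7019 genes that averaged at least 5 FPKM, 1.28% had a ratio at least as far from 1 in that pair. The same share was 76.4% in number 1 and 11.6% in number 3. Since the pair was picked as the widest of the members, 1.28% is no measure of chance. The libraries numbered 3 went the other way, at a ratio of 1.26, and the group means were 7.04 ± 4.49 FPKM with AAV-shbrpf1 and 7.24 ± 2.23 FPKM with AAV-scramble (SD, n = 3 each). AAV-shbrpf1 library 2 had the lowest estimated depth, 13.1 M fragments. Its Lrp8 value corresponds to an estimated 183 fragments, against 653 to 1194 in the other libraries. This estimate is computed from the FPKM, so it restates the low value. AAV-scramble library 1, at 14.3 M fragments, had 793. Whether depth bears on the low value was not tested. Lrp8 (ENSMUSG00000028613) is on the plus strand of chromosome 4, from 107801869 to 107876840.

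The balance of the receptors varied between libraries. Vldlr was 1.79, 2.2 and 0.933 times Lrp8 in AAV-shbrpf1 libraries 1, 2 and 3, against 2.06, 1.41 and 0.914 times in AAV-scramble libraries 1, 2 and 3. Vldlr was thus the more abundant receptor transcript in 4 of 6 libraries, and in those numbered 3 the order was turned round. The log2 ratio averaged 0.63 ± 0.65 with AAV-shbrpf1, against 0.47 ± 0.59 with AAV-scramble (SD, n = 3 each). An exact two-sided permutation test over the 6 libraries gave p = 0.7, where 0.1 is the smallest p that 3 against 3 allow.

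Dab1, the adaptor that binds the receptor tails and without which the signal is not passed on, had 18.3, 7.29 and 12.3 FPKM in AAV-shbrpf1 libraries 1, 2 and 3, against 20.5, 7.91 and 10.3 FPKM in AAV-scramble libraries 1, 2 and 3. The order of the libraries was the same as for Vldlr, with number 1 high and number 2 low in each group. The group means lay close together, at 12.6 ± 5.49 FPKM with AAV-shbrpf1 and 12.9 ± 6.68 FPKM with AAV-scramble (SD, n = 3 each). Dab1 (ENSMUSG00000028519) is on the plus strand of chromosome 4, from 103619359 to 104744844, and its coding transcripts run from 641 to 5278 nt, so that its FPKM depends on the transcripts that the authors' program assigned reads to. For each Reln transcript per unit length there were 0.245, 0.072 and 0.156 of Dab1 in AAV-shbrpf1 libraries 1, 2 and 3, against 0.31, 0.0719 and 0.152 in AAV-scramble libraries 1, 2 and 3. This ratio separated the replicate numbers and not the viruses (exact two-sided permutation p = 1).

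Fyn, the Src family kinase that phosphorylates Dab1, was second to Reln in each of the 6 libraries. It had 40.5, 37.8 and 50.4 FPKM in AAV-shbrpf1 libraries 1, 2 and 3, against 36.4, 39.4 and 51.3 FPKM in AAV-scramble libraries 1, 2 and 3. The libraries numbered 3 were the high ones, and the groups overlapped. Fyn varied least of the 7, by 1.41 times between its lowest and highest library, whereas Lrp8 varied by 5.17 times. Its means were 42.9 ± 6.6 FPKM with AAV-shbrpf1 and 42.3 ± 7.91 FPKM with AAV-scramble (SD, n = 3 each). Fyn (ENSMUSG00000019843) is on the plus strand of chromosome 10, from 39368855 to 39565381.

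Crk and Crkl, paralogous adaptors with SH2 and SH3 domains that can stand in for each other downstream of Dab1, followed different patterns. Crk had 31.1, 8.88 and 20.8 FPKM in AAV-shbrpf1 libraries 1, 2 and 3, against 34.5, 11.1 and 18.9 FPKM in AAV-scramble libraries 1, 2 and 3. It followed the order of Vldlr and Dab1. Crkl had 16.8, 12.4 and 21.002 FPKM in AAV-shbrpf1 libraries 1, 2 and 3, against 18.0, 12.6 and 19.98 FPKM in AAV-scramble libraries 1, 2 and 3. Its highest libraries were those numbered 3, as for Fyn. The ratio of Crk to Crkl was 1.85, 0.716 and 0.992 in AAV-shbrpf1 libraries 1, 2 and 3, against 1.91, 0.875 and 0.948 in AAV-scramble libraries 1, 2 and 3. Crk therefore exceeded Crkl in the libraries numbered 1 alone, and the log2 ratio did not differ between the viruses beyond its spread (exact two-sided permutation p = 0.9). Over the 3 ratios tested, all adjusted p were 1. Crk (ENSMUSG00000017776) lies on chromosome 11 from 75679259 to 75706908 and Crkl (ENSMUSG00000006134) on chromosome 16 from 17451987 to 17487434, both on the plus strand.

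**Figure D2:**
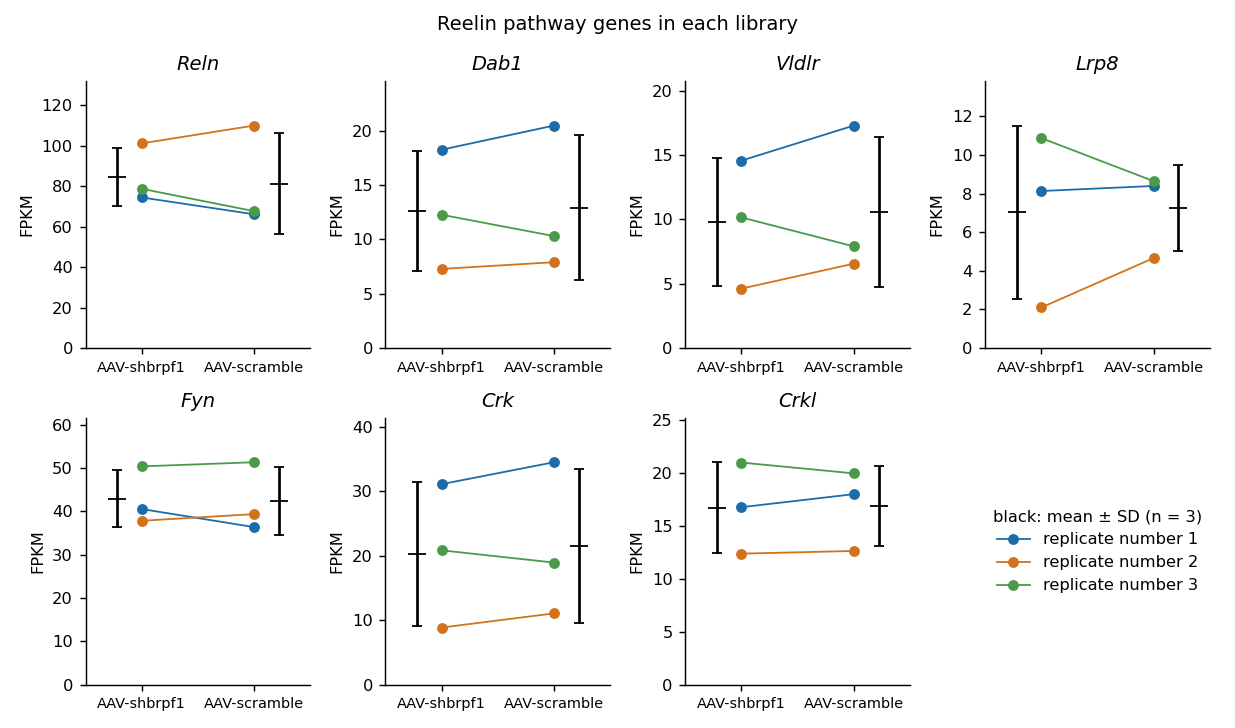
FPKM of each member by library, AAV-shbrpf1 at the left and AAV-scramble at the right of each panel, with a line joining libraries of the same replicate number and the mean ± SD of each group (n = 3) in black. The groups overlap for all 7 genes. Crk lies at 31.1 and 34.5 FPKM in number 1 and at 8.88 and 11.1 FPKM in number 2, whereas Reln overlaps between numbers 1 and 3, and Fyn between numbers 1 and 2.

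Set side by side per length, the order of the means was Reln, Fyn, Crk, Crkl, Dab1, Vldlr and Lrp8. Reln over Fyn, Fyn over Crk and Dab1 over Vldlr held in 6 of 6 libraries. The other neighbours were not separated: Crk exceeded Crkl in 2 libraries, Crkl exceeded Dab1 in 4 and Vldlr exceeded Lrp8 in 4. The ligand was 1.32 to 2.80 times the kinase, and Dab1 1.19 to 1.58 times Vldlr.

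None of the 7 genes was called between AAV-shbrpf1 and AAV-scramble, and in all 7 the groups overlapped. By limma on log2(FPKM + 1), 0% of the 12792 genes passed at an adjusted p under 0.05 and 23 had an unadjusted p under 0.05. Groups did not overlap in 1.07% of these genes. The differences (AAV-shbrpf1 minus AAV-scramble, log2 scale, with SE) were 0.09 ± 0.29 for Reln, -0.11 ± 0.47 for Vldlr, -0.20 ± 0.52 for Lrp8 and -0.01 ± 0.43 for Dab1. They were 0.02 ± 0.25 for Fyn, -0.10 ± 0.54 for Crk and -0.02 ± 0.29 for Crkl. Every one had a limma adjusted p of 1.00. The median over the members was -0.02, as over all genes tested.

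A difference that was not called is bounded by its interval. The 95% interval for Reln ran from -0.60 to 0.78, which is 0.659 to 1.71 times on the scale of FPKM + 1, and that for Crk from -1.36 to 1.15, or 0.391 to 2.22 times. With a block for the replicate number the estimates are the same and the intervals narrower, at 0.897 to 1.26 times for Reln, 0.777 to 1.12 times for Crk and 0.881 to 1.17 times for Fyn. In that fit the widest of the 7 was that of Lrp8, at 0.588 to 1.28 times. With the block 0% of genes passed, 280 genes had an unadjusted p under 0.05, and none of the members was among them (limma p from 0.378 to 0.929).

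**Figure D3:**
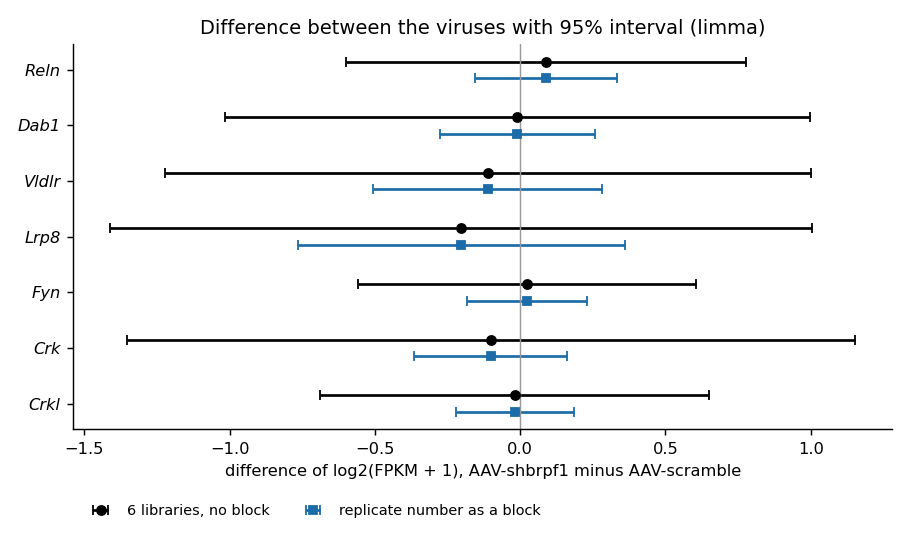
Difference of log2(FPKM + 1), AAV-shbrpf1 minus AAV-scramble, with its 95% interval from limma for each member, without a block (black circles) and with the replicate number as a block (blue squares). Every interval includes 0, and the block narrows that of Crk from -1.36 to 1.15 down to -0.36 to 0.16.

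Within a replicate number most members differed in the same direction, but that direction changed with the number. In number 3, 6 of 7 were higher with AAV-shbrpf1, by 28.5% for Vldlr, 25.8% for Lrp8, 19.1% for Dab1 and 16.3% for Reln. In number 2, 0 of 7 were higher, and in number 1, 2 of 7 were, Reln by 12.6% and Fyn by 11.4%. Of all genes tested, 43.9%, 40.2% and 52.4% were higher with AAV-shbrpf1 in numbers 1, 2 and 3. No member had the same direction in all 3 numbers. Of the 21 ratios, 14 had a 95% counting interval that excluded 1. The share over all genes was not computed, so this count cannot be read as particular to the members. The counting error was 0.607% to 7.4% per value, from fragments estimated from FPKM, length and depth and not from counted reads. It does not cover the variation between separate samples, so that these intervals are no test of the virus. The median log2 difference of the members was -0.10, -0.12 and 0.22 in numbers 1, 2 and 3, beside -0.02, -0.05 and 0.01 for all genes tested.

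**Figure D4:**
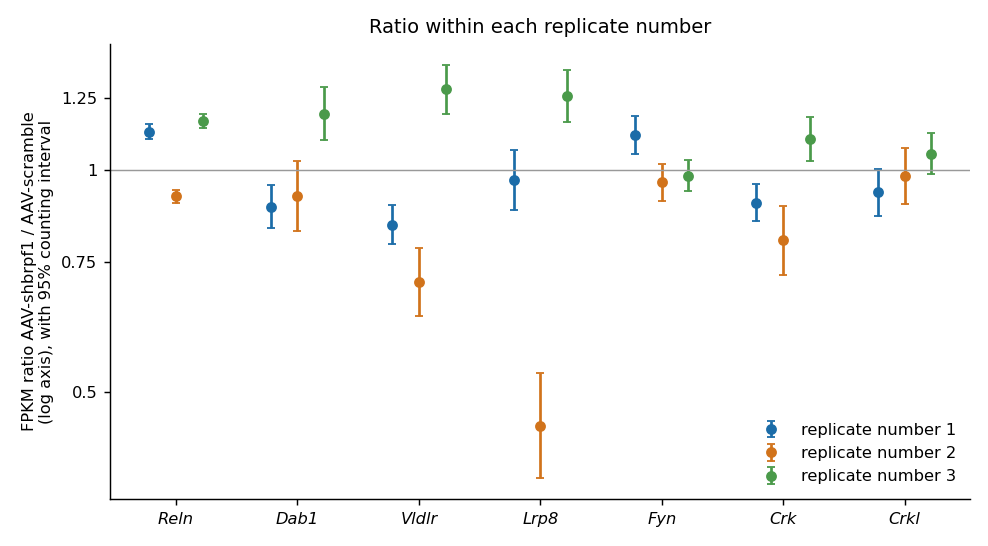
Ratio of FPKM in AAV-shbrpf1 to AAV-scramble within each replicate number, on a log axis, with the 95% interval that counting error alone gives. Ratios fall on both sides of 1 for every gene, from 0.451 for Lrp8 in number 2 to 1.28 for Vldlr in number 3.

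The clear differences were between replicate numbers. All 7 members differed between them in limma's F test with the virus in the model, where 69.4% of all genes did. With only 7 genes, this full count is not read as particular to the members. The adjusted p was 0.00232 for Crk, 0.00287 for Dab1, 0.00539 for Vldlr, 0.00602 for Crkl, 0.0132 for Reln, 0.0139 for Lrp8 and 0.0244 for Fyn. Its share of the sum of squares was 83.3% for Lrp8 and 98.4% for Crkl, with the other members between. The call for Reln was lost when AAV-shbrpf1 library 1 (limma adjusted p = 0.0515), AAV-scramble library 1 (0.063) or AAV-scramble library 2 (0.0821) was left out, and that for Fyn when library 1 (0.0613) or 3 (0.069) of AAV-shbrpf1 or library 1 (0.0863) or 3 (0.116) of AAV-scramble was.

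The members fell into 3 patterns over the numbers, described after their values were seen. Dab1, Vldlr and Crk were highest in number 1, at a mean of 19.4, 15.9 and 32.8 FPKM, and lowest in number 2, at 7.6, 5.59 and 9.97 FPKM, so that they stood 2.55, 2.85 and 3.29 times higher in number 1 than in number 2. Lrp8 and Crkl were also lowest in number 2 but highest in number 3, at 9.76 and 20.5 FPKM, and Fyn was highest there as well, at 50.8 FPKM. Reln was highest in number 2, with 106 FPKM in number 2 against 70.3 in number 1 and 73.2 in number 3. Other features of the libraries moved with the numbers. The 12 progenitor and glia markers, all measured, summed to 514 FPKM in AAV-shbrpf1 library 2 and 548 FPKM in AAV-scramble library 2, against 1010 to 1099 FPKM in the other 4. Fabp7, a lipid-binding protein of radial glia, carried this, with 169 FPKM in AAV-shbrpf1 library 2 and 187 FPKM in AAV-scramble library 2, against 570 to 758 FPKM elsewhere. Without it, left out after its values were seen, the other 11 summed to 305, 346 and 492 FPKM in AAV-shbrpf1 libraries 1, 2 and 3, against 280.2, 360.2 and 518 FPKM in AAV-scramble libraries 1, 2 and 3, lowest in number 1. Of the 12, 6 were lowest and 1, Aldh1l1 of astrocytes, was highest in number 2 in both groups, while Olig1, Olig2 and Hes5 were higher there than in number 1. The part of cell make-up, or of RNA quality, in the difference between numbers was not tested, and what a number stands for is not stated.

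**Figure D5:**
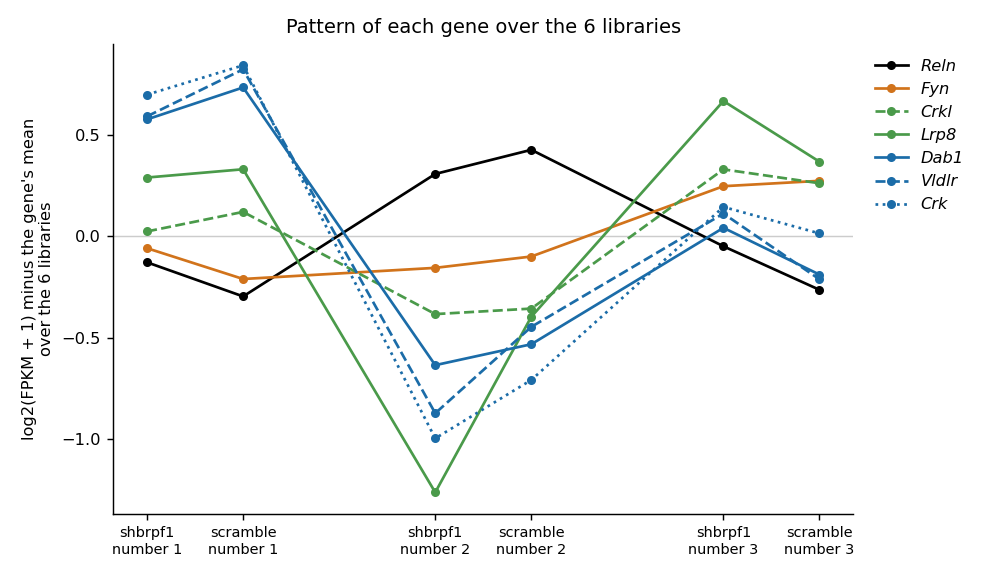
log2(FPKM + 1) of each member minus its mean over the 6 libraries, with AAV-shbrpf1 left of AAV-scramble within each replicate number. Dab1, Vldlr and Crk (blue) are lowest in number 2, where Reln (black) is highest, with either virus.

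Likeness between patterns was measured as the root mean square difference of log2(FPKM + 1), each gene centred on its mean over the 6 libraries. Among the members, Dab1 and Vldlr were closest, at 0.11, with Vldlr and Crk at 0.16 and Dab1 and Crk at 0.20. Reln was 0.38 from Fyn and 0.75 to 0.92 from Dab1, Vldlr, Lrp8 and Crk. Among 11413 named genes, those most like Reln were Rap1gap2, an inactivator of Rap1 (0.05), Rab6b, a Golgi GTPase of neurons (0.05), and Tmem266, a membrane protein (0.07). Rab6b, for example, had 210, 312 and 230 FPKM in AAV-shbrpf1 libraries 1, 2 and 3, against 194, 318 and 213 FPKM in AAV-scramble libraries 1, 2 and 3. Most like Dab1 were Snhg1, a host gene of small nucleolar RNAs (0.04), Rnft1 (0.04) and Mbtps2, a membrane protease (0.04), and Vldlr came at rank 270. The 6 libraries form 3 pairs, so that such likeness rests mainly on 3 levels and many genes share it.

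Other genes of the pathway were read from lists of its arms, 72 genes in all, of which 65 were measured. None was called between the viruses in either fit (0% of all genes in each), the groups overlapped in all 65, and the median log2 difference was -0.04, beside -0.02 for all genes tested. With the replicate number as a block, 0 of 65 had an unadjusted limma p under 0.05, against 2.19% of all genes. Between replicate numbers 52 of 65 (80.0%) differed, beside 69.4% of all genes tested. When AAV-shbrpf1 library 1 or AAV-scramble library 1 was left out, 33 did, beside 41.7% and 37.7% of all genes, so that nothing particular to the pathway is read from these counts.

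Proteases cut Reelin and limit its range. Of 11 genes listed for its cleavage, 7 were measured. The inhibitor Serpini1 (neuroserpin) had 7.86 ± 5.52 FPKM with AAV-shbrpf1 and 7.15 ± 4.16 FPKM with AAV-scramble, and its target Plat (tissue plasminogen activator), which can cut Reelin, 6.78 ± 2.37 and 6.94 ± 1.7 FPKM (SD, n = 3 each). Adamts3, a main Reelin protease of the embryonic mouse brain, had 2.94 ± 1.29 FPKM with AAV-shbrpf1 and 2.8 ± 0.261 FPKM with AAV-scramble, while the meprin genes Mep1a and Mep1b were listed at 0 in each library. Among 7 measured genes for other receptor ligands and receptor turnover, Apoe, a ligand of both receptors, was the most abundant. Apoe had 120, 309 and 509 FPKM in AAV-shbrpf1 libraries 1, 2 and 3, against 112, 343 and 628 FPKM in AAV-scramble libraries 1, 2 and 3. It exceeded Reln in each library and was lowest in number 1. Apba1, a synaptic adaptor, had 53.5 ± 18.9 FPKM with AAV-shbrpf1 and 52.3 ± 19.2 FPKM with AAV-scramble (SD, n = 3 each).

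Closer to Dab1, the 6 other genes of Src family kinases and their regulators were led by the phosphatase Ptpn11, at 28.9 ± 4.34 FPKM with AAV-shbrpf1 and 29.3 ± 4.01 FPKM with AAV-scramble, and by Csk, which holds Src kinases inactive, at 23.9 ± 8.47 and 26.3 ± 8.69 FPKM (SD, n = 3 each). Src itself, the kinase that shares the work with Fyn, had 15.5 ± 3.54 FPKM with AAV-shbrpf1 and 16.2 ± 3.71 FPKM with AAV-scramble, below Fyn in both groups. Phosphorylated Dab1 is removed through a cullin ubiquitin ligase. Of 7 genes of this step 6 were measured, led by Elob, at 56.7 ± 15.6 FPKM with AAV-shbrpf1 against 59.6 ± 25.6 FPKM with AAV-scramble, and Rnf7, at 29.5 ± 9.05 FPKM with AAV-shbrpf1 against 30.0 ± 9.69 FPKM with AAV-scramble (SD, n = 3 each). The cullin gene Cul5 had 6.55, 1.38 and 5.16 FPKM in AAV-shbrpf1 libraries 1, 2 and 3, against 6.75, 2.67 and 4.14 FPKM in AAV-scramble libraries 1, 2 and 3.

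Downstream of Crk and Crkl, all 12 genes of the Rap1 and adhesion arm were measured, led by the N-cadherin gene Cdh2 at 26.9 ± 6.76 FPKM with AAV-shbrpf1 and 28.4 ± 4.81 FPKM with AAV-scramble and by the integrin gene Itgb1 at 27.0 ± 13.6 and 27.8 ± 12.5 FPKM (SD, n = 3 each). Rapgef1, the exchange factor that Crk carries to Rap1, had 12.0, 27.5 and 16.3 FPKM in AAV-shbrpf1 libraries 1, 2 and 3, against 13.6, 28.2 and 17.6 FPKM in AAV-scramble libraries 1, 2 and 3. It was highest in number 2, as Reln was, whereas the GTPase gene Rap1a was lowest there, at 4.53 and 4.3 FPKM, against 9.81 to 18.0 FPKM in the other libraries. The 15 genes of the phosphatidylinositol 3-kinase, Akt and cytoskeleton arm were led by the microtubule protein genes Mapt, at 242 ± 82.6 FPKM with AAV-shbrpf1 and 242 ± 79.7 FPKM with AAV-scramble, and Map1b, at 230 ± 72.6 and 213 ± 50.4 FPKM (SD, n = 3 each). Among 12 co-receptors and genes of parallel migration pathways, the ephrin gene Efnb3 had 90.9 ± 19.1 FPKM with AAV-shbrpf1 and 87.9 ± 24.9 FPKM with AAV-scramble, and the Cdk5 activator gene Cdk5r1 74.6 ± 14.7 and 72.7 ± 16.8 FPKM (SD, n = 3 each).

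Within single replicate numbers, Gsk3b and Pafah1b1 showed the widest differences of the 65 genes and were picked out after their values were seen. Gsk3b, a kinase that Akt inhibits, had 36.2, 9.39 and 71.1 FPKM in AAV-shbrpf1 libraries 1, 2 and 3, against 38.8, 32.9 and 61.5 FPKM in AAV-scramble libraries 1, 2 and 3. Its value in AAV-shbrpf1 library 2 was 0.285 times that in AAV-scramble library 2. Pafah1b1, the lissencephaly gene Lis1, whose protein interacts with phosphorylated Dab1, had 69.0, 21.8 and 49.1 FPKM in AAV-shbrpf1 libraries 1, 2 and 3, against 72.2, 28.3 and 17.3 FPKM in AAV-scramble libraries 1, 2 and 3. Here AAV-scramble library 3 was the one out of order, at a ratio of 2.85. Neither gene was called (limma adjusted p = 1.00 for each).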

How the data were processed

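Total RNA of 6 mouse samples (3 AAV-shbrpf1, 3 AAV-scramble) was sequenced as paired ends, per the labels' protocols. The authors deposited 1 table of 55335 genes. No unit stands in its header. These deposited values were taken as FPKM, since they are not whole and sum to different totals, and StringTie, which writes FPKM, is named with FastQC and DESeq2, without versions or roles, per the submitters' processing notes. For the aligner, annotation, filters and strand use, details were not given in the sources used here. Although those notes name mm9, 54899 of 55154 identifiers found in GENCODE M21 have the same start and end there, so coordinates are those of GRCm38.

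Columns were matched to samples by group and number in the titles. Depth came from 11673 genes of over 400 nt whose only transcript has a single exon, where the commonest value of FPKM times length was taken as 1 fragment. Only 39.5% to 43.4% of the values below about 5 such steps were whole multiples of it (tolerance 0.03 of a step). Reads were therefore not recovered, and no count model was fitted between the viruses. Depth and implied fragments are estimates, and the counting intervals rest on them. Implied fragments use the longest coding transcript, and counting intervals (95%, normal approximation on the log ratio) cover counting error only.

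Genes were kept where either group averaged 1 FPKM or more. log2(FPKM + 1) was tested with limma 3.58.1 (R 4.3.3, trend, two-sided, Benjamini-Hochberg adjustment over all genes tested, threshold 0.05), without scaling or covariates. On this scale the changes of low genes are understated. Differences between replicate numbers were tested by an F test in limma with the virus in the model. Ratios of members were tested by exact permutation and, with the numbers as pairs, by exact sign flips. The code was tested on simulated data. Same-numbered libraries deviated together from their group means (r = 0.87, 0.83 and 0.57), and r with another number was 0.002 or less, so the numbers were taken as pairs on the values alone, and blocked values are given where they narrow an interval. The genes named are all members, the 2 most abundant of each pathway list, genes past the threshold, and the 3 genes most like Reln and Dab1 in pattern; any other gene named was chosen after its values were seen. Members and lists were chosen with earlier results of these data known. Alternatives were other pseudocounts, filters, scalings, no trend, the block, and leaving out each library.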

Additional observations from a re-analysis of the deposited data

How the results depend on the processing

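None of the 7 members and none of the 65 other pathway genes was called between the viruses under any alternative tried; the limma adjusted p of the members ran from 0.782 to 1.00 over them. Signs of the members were not stable when 1 library was left out without the block. That leaves its replicate number in 1 group only, so the shifts include the difference between numbers. Leaving out 1 library at a time, the log2 difference ranged from -0.044 to 0.32 for Reln, -0.44 to 0.30 for Vldlr, -0.59 to 0.38 for Lrp8, -0.30 to 0.36 for Dab1, -0.10 to 0.17 for Fyn, -0.48 to 0.37 for Crk, -0.20 to 0.17 for Crkl and -0.36 to -0.06 for Brpf1. Brpf1 did not pass the minimum of 5 FPKM and has no value there. The log2 ratios ranged from -0.14 to 0.52 (Vldlr to Lrp8), -0.47 to 0.27 (Crk to Crkl) and -0.63 to 0.42 (Dab1 to Reln). The sign of Dab1 also turned with quantile normalization (0.0073).

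With the replicate number as a block, no call changed (Reln 0.09, 95% interval -0.16 to 0.33). An alternative added after seeing the data left out both libraries of a number under the block. Without number 2 the signs turned for Dab1 (0.037), Vldlr (0.046) and Lrp8 (0.13), and without number 1 for Dab1 (0.064), Fyn (-0.041) and Crkl (0.021). Reln kept its sign without numbers 1, 2 and 3 (0.048, 0.19 and 0.025), and so did Crk (-0.079, -0.0070 and -0.22). Over all genes, 5 were then higher and 3 lower without number 2, and 1 was higher without number 3; none was a member.

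Between replicate numbers, 8876 genes differed, 5493 with a minimum of 5 FPKM (fewer genes were tested), and 4793 to 8885 when 1 library was left out (5331 without AAV-shbrpf1 library 1 and 4793 without AAV-scramble library 1). Of the 65 other pathway genes, 33 to 51 then differed, 33 without either of these libraries, and of the members 5 to 7. The call was also lost for Lrp8 (adjusted p = 0.0688) and Fyn (0.0574) with no filter, and for Reln with quantile normalization (0.0607); the cause was not tested. A study of 3 samples against 3 with this spread leaves wide intervals, so small changes of these genes were not detectable here.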
